A study of Mus musculus with 10 samples.

Results

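The genes described here set the brake and the accelerator of the G1 phase: 5 inhibitors of cyclin-dependent kinases (Cdkn1a, Cdkn1b, Cdkn1c, Cdkn2c and Cdkn2d), 3 D cyclins (Ccnd1, Ccnd2 and Ccnd3) and the kinases Cdk4 and Cdk6. They were picked by gene symbol, not by their values, and all 10 were found among the 15078 genes measured and were among the 13644 tested. RNA sequencing was done on CD51+CD200+ stromal cells sorted from mouse bones, without CD45+, Ter119+ or CD31+ cells. BM-MSCs (n = 3) were marrow mesenchymal stem cells and P-SSCs (n = 3) periosteal skeletal stem cells, both from wild-type mice labelled as hosts at steady state with no treatment. The labels do not say whether these hosts carried a graft. Graft BM-MSCs (n = 4) were Tomato+ cells from the marrow of femurs of Postn-CreER;tdTomato donors, which had been transplanted under the skin of recipient mice and examined 5 months later, after tamoxifen. Tomato thus marks cells in which the periostin promoter drove Cre when tamoxifen was given, together with their progeny. BM-MSC 2+4 and P-SSC 2+5 each hold the joined RNA of a pair of mice. The graft group differed from both steady-state groups in genotype, tamoxifen, transplantation and the sort for Tomato at once, and these cannot be told apart. Comparing the 3 groups asks where these Tomato+ marrow cells, which the study reads as of periosteal origin, stand in their G1 machinery against resident marrow and periosteal cells.

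D cyclins bind Cdk4 and Cdk6, and the complexes phosphorylate the retinoblastoma protein, which releases E2F factors and lets a cell leave G1. INK4 inhibitors (Cdkn2c encodes p18, Cdkn2d encodes p19) bind the kinases alone, while CIP/KIP inhibitors (Cdkn1a encodes p21, Cdkn1b encodes p27, Cdkn1c encodes p57) bind complexes with a cyclin and block Cdk2 above all. p57 and p27 are known for holding blood stem cells out of division, and p21 for arrest after DNA damage. RNA levels do not measure the proteins, several of which are set by degradation.

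Libraries held 15415421 to 25223295 reads, and values are normalised counts (read counts divided by a size factor). Graft libraries detected fewer genes (9308 to 11674) than steady-state libraries (12217 to 13341). Of genes with at least 100 normalised counts in the other libraries of the group, 0.898% to 8.78% were at 0 in a graft library. In the libraries from steady state this share did not exceed 0.363%. Genes with over 65% GC were high relative to genes with 50% to 60% GC in the 4 graft libraries and P-SSC 4 (log2 difference 1.31 to 2.61) and low in the other 5 (−1.99 to −1.499). All BM-MSC libraries were of the low kind and all graft libraries of the high kind. Only the P-SSC group held both kinds. A fit with the GC kind of the library as a covariate therefore takes its GC effect from P-SSC 4 against the other P-SSC libraries, so it rests on 1 library and cannot separate GC kind from group. Marrow stroma markers (Cxcl12, Lepr, Kitl and Adipoq, summed) were at 663311 to 1130910 in both marrow groups and at 4505 to 8842 in P-SSCs. Periosteal markers (Postn, Fmod, Fn1 and Pi16) were at 268993 to 497448 in P-SSCs and at most 12311 elsewhere. Postn itself was at 16558 to 24828.5 in P-SSCs, at 3757 to 5041 in BM-MSCs and at 0 in 3 of the 4 graft libraries. Erythroid markers summed to 48288 to 168168 in BM-MSCs, 173 to 1174 in P-SSCs and 1226 to 23416 in grafts, and the neutrophil sum reached 72146 in graft BM-MSC 3. In such sorted populations fewer cells expressing a gene and less RNA per cell cannot be told apart.

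Few of the 10 genes differed between groups past the test, and a single one, Cdkn1a, did so in all 3 comparisons. Differences are log2 changes of value + 1, fitted with limma to all libraries, and a gene was called at an adjusted p under 0.05 over all genes tested. Between graft BM-MSCs and P-SSCs 2 of 10 genes were called, beside 18.1% of all genes tested. Between graft BM-MSCs and BM-MSCs 2 of 10 were called, beside 7.67%. Between P-SSCs and BM-MSCs 1 of 10 was called, beside 9.15%. The values of the groups did not overlap for 3, 4 and 5 of the 10 genes in the same order, beside 26.6%, 25.0% and 30.9% of all genes tested. The median log2 change of the 10 was −0.62, −0.41 and 0.43, beside −0.47, −0.53 and 0.0022 over all genes tested. Since these shares give no sign of a change of the 10 genes as a group, the calls below describe single genes.

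**Figure D1:**
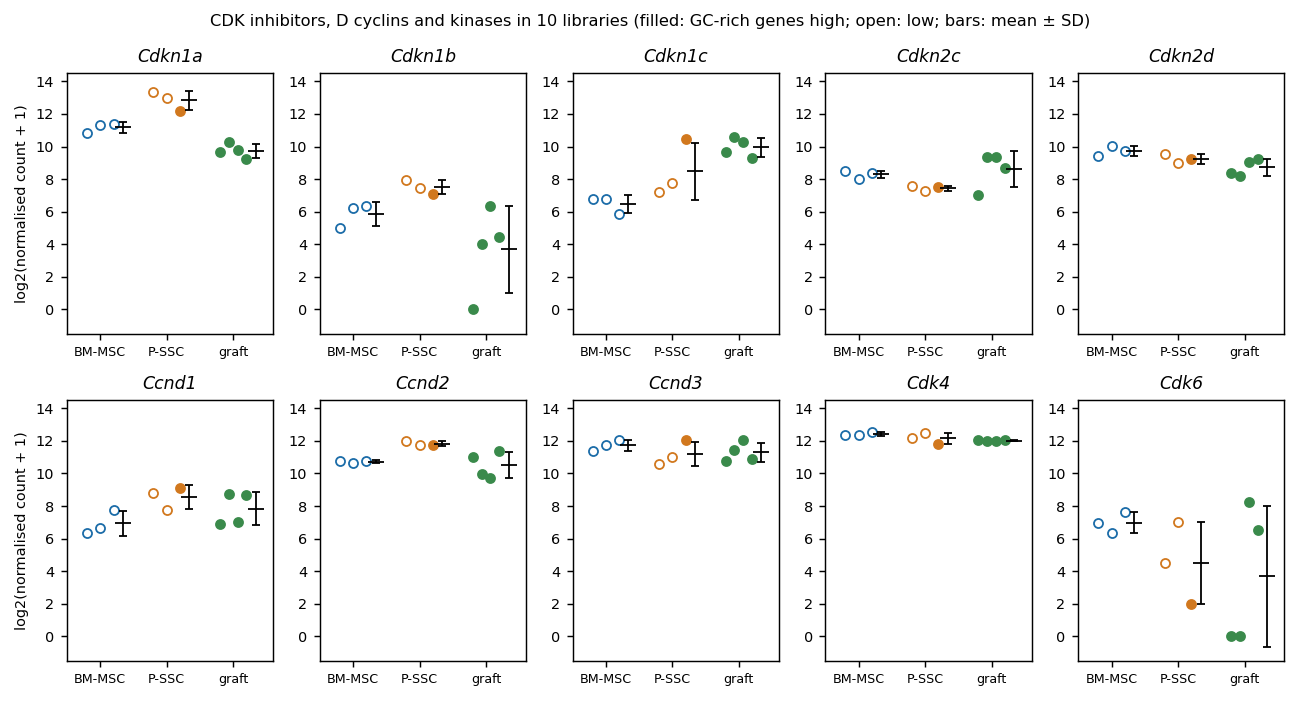
Each panel plots log2(normalised count + 1) of 1 gene in the 3 BM-MSC, 3 P-SSC and 4 graft BM-MSC libraries. Filled points are libraries in which GC-rich genes were high, open points those in which they were low, and bars give the mean ± SD of each group. Cdkn1a is highest in all P-SSC and lowest in all graft libraries, Cdkn1c separates filled from open points, and Cdk4 stays within a narrow range.

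Cdkn1a, the p53 target that encodes p21, was the inhibitor with the clearest difference between the groups. In BM-MSCs its normalised counts were 1791, 2548 and 2714, in P-SSCs 10318.5, 8099 and 4628, and in graft BM-MSCs 819, 1257, 882 and 609. The 3 ranges did not overlap, with every P-SSC library above every BM-MSC library and every graft library below both. Graft BM-MSCs were lower than P-SSCs by a log2 change of −3.08 (SE 0.34, adjusted p = 0.000176), a fold of 8.44. They were also lower than BM-MSCs, by −1.42 (SE 0.34, adjusted p = 0.0322). P-SSCs were higher than BM-MSCs by 1.65 (SE 0.36, adjusted p = 0.0149). The difference between graft BM-MSCs and P-SSCs kept its call in all 22 alternatives, with log2 changes of −3.40 to −2.10. The call against BM-MSCs was lost with a GC correction (−0.47, adjusted p = 0.626) and with the GC kind of the library as a covariate (−0.44, adjusted p = 0.887). Leaving out any BM-MSC library or graft BM-MSC 1, 3 or 4 also ended it (−1.61 to −1.26, adjusted p 0.0549 to 0.129). The call of P-SSCs against BM-MSCs ended without BM-MSC 1, P-SSC 1 or P-SSC 2+5 (1.403 to 1.58, adjusted p 0.0582 to 0.0738). Among the 5 libraries with GC-rich genes high, P-SSC 4 (4628) stood above all 4 grafts, and among the 5 with them low, both P-SSC libraries stood above all 3 BM-MSC libraries.

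Cdkn1a lies at chr17:29090976-29100727 (GRCm38, plus strand) and has 2 start sites in RefSeq. The 245 bases that end 5 bases before the upstream start, chr17:29090729-29090973 (GRCm38.p6, plus strand, outside annotated exons), are shown because they carry a p53-type pair of half-sites. The capitals mark CATG, 6 bases, CATG, at 48 to 35 bases before the start.
Cdkn1a upstream start: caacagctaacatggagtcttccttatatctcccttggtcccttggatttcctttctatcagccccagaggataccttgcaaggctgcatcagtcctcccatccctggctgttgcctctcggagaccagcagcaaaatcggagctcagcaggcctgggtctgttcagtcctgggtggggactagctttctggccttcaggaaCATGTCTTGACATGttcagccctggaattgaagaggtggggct
Searched on both strands, this spacing occurs in 0.484% of 32851 RefSeq windows of the same length. The window before the other Cdkn1a start holds no such match and 2 GC boxes (GGGCGG or its reverse complement), which 32.1% of all windows hold at least once. A match of letters is a description and not a site of binding. Of the 10 genes 7 have RefSeq windows, 10 in number, and no other of these held the p53-type spacing. Trp53, which encodes p53, and Mdm2, its target and inhibitor, passed the test in none of the 3 comparisons. These RNA levels do not measure p53 protein, and its part in the Cdkn1a values was not tested.

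Cdkn1c, an imprinted gene that encodes p57, was high in graft BM-MSCs and in 1 periosteal library. BM-MSC libraries held 111, 110 and 57.2 normalised counts, P-SSC libraries 148, 217 and 1423, and graft libraries 816, 1525.5, 1251 and 633. Graft and BM-MSC values did not overlap, while P-SSC 4 lay within the graft range. All P-SSC values also lay above those of BM-MSCs, by a log2 change of 2.00 (SE 0.80, adjusted p = 0.188). That change was called in 1 of 22 alternatives, DESeq2. Graft BM-MSCs were higher than BM-MSCs by a log2 change of 3.48 (SE 0.75, adjusted p = 0.0214), and against P-SSCs the change was 1.48 (SE 0.75, adjusted p = 0.200). Without P-SSC 4 the latter was 2.47 (adjusted p = 0.0103), and with the GC kind of the library as a covariate it turned to −0.51 (adjusted p = 0.748). The change against P-SSCs was called in 2 of 22 alternatives, the one without P-SSC 4 among them. The 5 libraries with GC-rich genes high held 633 to 1525.5 and the 5 others 57.2 to 217, with no overlap. With the GC kind as a covariate, its effect taken from P-SSC 4 against the other P-SSC libraries, the change over BM-MSCs was 0.49 (adjusted p = 0.908). A correction for the GC content of the whole transcript gave 4.21 (adjusted p = 0.00639). The call ended without any 1 of the 3 BM-MSC libraries (3.17 to 3.64, adjusted p 0.0589 to 0.0894).

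Cdkn1c is at chr7:143458339-143461050 (GRCm38, minus strand), and its transcript has 59.0% GC, above 92.6% of genes tested. Its most GC-rich stretch of 100 coding bases is shown because this gene moved with the GC kind of the library. The stretch spans coding bases 364 to 463, lies at chr7:143460245-143460344 in exon 2 of 4 of the GENCODE M21 transcript, and is 82% G or C. The capitals mark runs of at least 6 bases that are all G or C.
Cdkn1c coding stretch: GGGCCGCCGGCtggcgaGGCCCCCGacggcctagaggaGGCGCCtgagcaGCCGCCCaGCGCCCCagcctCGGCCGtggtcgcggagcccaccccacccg
A stretch at least as GC-rich occurs in 5.52% of 12765 coding genes tested. The 6 other genes with a stretch of 70% to 76% (Ccnd3, Cdkn1b, Cdkn1a, Cdkn2d, Ccnd1 and Cdk6) overlapped between both kinds of library. Cdk4, whose richest stretch has 64%, did not overlap either, and it was lower where GC-rich genes were high. The part of base composition in the Cdkn1c values was not tested.

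**Figure D2:**
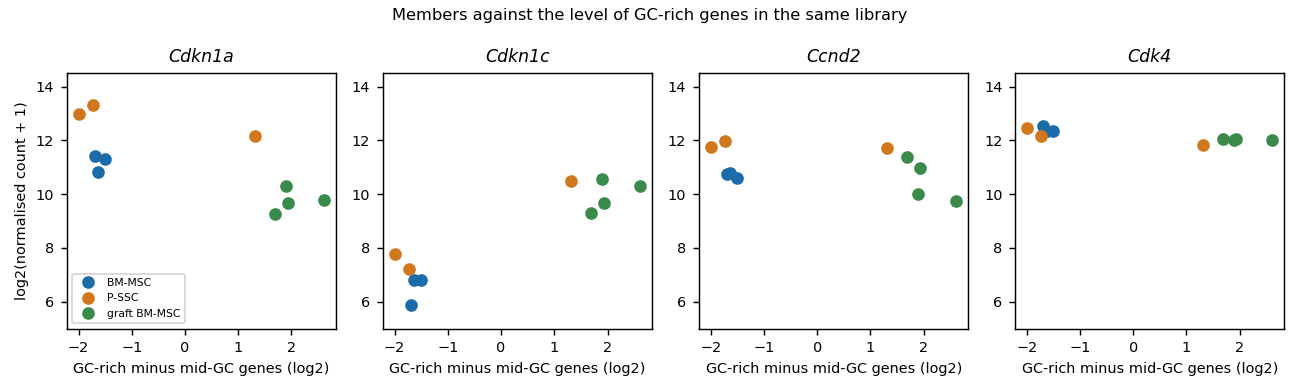
Points are the 10 libraries, with the log2 difference between GC-rich and mid-GC genes on the horizontal axis and log2(normalised count + 1) of Cdkn1a, Cdkn1c, Ccnd2 and Cdk4 on the vertical axis. P-SSC 4 sits with the grafts for Cdkn1c, with 1423 beside 633 to 1525.5, and apart from them for Cdkn1a, with 4628 beside 609 to 1257.

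Cdkn1b (chr6:134920401-134925513, plus strand) encodes p27, which accumulates in resting cells. It was low throughout, at 31.3, 72.8 and 80.9 normalised counts in BM-MSCs, 245, 176 and 138 in P-SSCs, and 0, 15.2, 79.6 and 20.7 in grafts. All P-SSC values lay above those of both other groups, but none of the differences passed the test. The log2 change between graft BM-MSCs and P-SSCs was −3.81 (SE 1.44, adjusted p = 0.0937), and without graft BM-MSC 3 it was −4.69 (adjusted p = 0.0417). That was the only call of this change in 21 alternatives. The value of 0 in graft BM-MSC 1 allows up to 1.69 normalised counts, the worth of 3 reads there.

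The INK4 inhibitors did not pass the test in any comparison. Cdkn2c (chr4:109660876-109667189, minus strand) was at 358, 258 and 326 normalised counts in BM-MSCs, 189, 154 and 179 in P-SSCs and 131, 667, 646 and 410 in grafts. P-SSC values lay below all BM-MSC values (log2 change −0.84, SE 0.65, adjusted p = 0.669), and grafts spanned both ranges. Between graft BM-MSCs and P-SSCs the log2 change was 1.16 (SE 0.61, adjusted p = 0.214), and without graft BM-MSC 1, the lowest, it was 1.69 (adjusted p = 0.0271). That was the only call of this change in 22 alternatives. Cdkn2d (chr9:21288410-21291407, minus strand) was at 689, 1055 and 830 in BM-MSCs, 749, 497 and 600 in P-SSCs and 327, 292, 538 and 608 in grafts. Its graft values all lay below those of BM-MSCs, with a log2 change of −1.01 (SE 0.39, adjusted p = 0.137).

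Among the D cyclins, which couple growth signals to the kinases, Ccnd2 differed between graft BM-MSCs and P-SSCs. Ccnd2 (chr6:127125162-127152193, minus strand) was at 1749, 1570 and 1734 normalised counts in BM-MSCs, 4063, 3438 and 3374 in P-SSCs, and 2032, 1017, 861 and 2664 in grafts. P-SSC libraries stood above all others, and the graft range held that of BM-MSCs. The log2 change of graft BM-MSCs against P-SSCs was −1.29 (SE 0.38, adjusted p = 0.0378), with no call under quantile normalization (−0.98, adjusted p = 0.109), the GC correction (−0.45, adjusted p = 0.404) or edgeR (−1.05, adjusted p = 0.103). P-SSCs against BM-MSCs gave 1.10 (SE 0.40, adjusted p = 0.139), and the fit to these 2 groups alone gave the same change with an adjusted p of 0.00573. The former call also ended when any library except graft BM-MSC 1 or 4 was left out (−1.34 to −1.03, adjusted p 0.0594 to 0.138).

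Ccnd1 and Ccnd3 did not pass the test in any comparison. Ccnd1 (chr7:144929931-144939925, minus strand), the D cyclin most tied to mitogen signals, was at 81.5, 100 and 218 normalised counts in BM-MSCs, 454, 213 and 540 in P-SSCs and 118, 420, 129 and 408 in grafts. Its P-SSC and BM-MSC ranges met at 213 and 218 (log2 change 1.62, SE 0.75, adjusted p = 0.290). Ccnd3 (chr17:47505051-47599691, plus strand), the D cyclin that blood cells use widely, was at 2693, 3406 and 4237 in BM-MSCs, 1534, 2106 and 4170 in P-SSCs and 1714, 2802, 4293 and 1926 in grafts. Its ranges overlapped throughout, and the graft and periosteal levels differed by 0.08 (95% interval −0.82 to 0.97). The highest graft value was that of graft BM-MSC 3, the library with the highest neutrophil sum, and the highest BM-MSC value that of BM-MSC 3, with the highest erythroid sum. The part of blood cell RNA in these values was not tested. Ccnd1, Ccnd2 and Ccnd3 share exon bases with genes on the opposite strand (1100 with LTO1, 368 with 9330179D12Rik and 361 with Bysl), and without a known strand setting their reads cannot be told apart there.

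Cdk4 was the most even of the 10 genes. Its normalised counts were 5165, 5184 and 5970 in BM-MSCs, 4608, 5709 and 3621 in P-SSCs, and 4226, 4092, 4090 and 4235 in grafts. Graft values lay below all BM-MSC values and inside the P-SSC range. The log2 change of graft BM-MSCs was −0.13 against P-SSCs (95% interval −0.56 to 0.29) and −0.38 against BM-MSCs (95% interval −0.81 to 0.04, adjusted p = 0.242). P-SSCs against BM-MSCs gave −0.25 (95% interval −0.70 to 0.21). The 5 libraries with GC-rich genes high (3621 to 4235) lay below the 5 others (4608 to 5970). Cdk4 shares 641 exon bases with Tspan31 on the opposite strand.

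Cdk4 lies at chr10:127063534-127067920 (GRCm38, plus strand), and the 245 bases that end 5 bases before its RefSeq start, chr10:127063285-127063529 (GRCm38.p6, plus strand), are shown because they hold 4 copies of the E-box CACGTG, a word that Myc and related factors bind. The capitals mark them, at 172 to 167, 118 to 113, 98 to 93 and 11 to 6 bases before the start.
Cdk4 upstream: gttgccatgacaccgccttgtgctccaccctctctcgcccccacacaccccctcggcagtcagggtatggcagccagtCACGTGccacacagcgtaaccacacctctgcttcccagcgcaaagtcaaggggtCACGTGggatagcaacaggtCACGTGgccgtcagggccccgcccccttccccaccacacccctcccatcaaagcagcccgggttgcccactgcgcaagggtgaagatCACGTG
At least 1 such E-box occurs in 5.85% of all windows, and among the other genes with a window only that of Cdk6 held one. Myc was higher in P-SSCs than in BM-MSCs (log2 change 2.65, SE 0.65, adjusted p = 0.0288, and 2.06 to 2.83 with adjusted p 0.066 to 0.124 without any 1 BM-MSC library, P-SSC 1 or P-SSC 2+5). Cdk4 did not pass the test in that comparison, and the part of Myc in the Cdk4 values was not tested.

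Cdk6 (chr5:3341485-3531008, plus strand), the partner kinase that is prominent in blood progenitors, was scarce and uneven. It was at 121, 81.2 and 201.2 normalised counts in BM-MSCs, 21.8, 129 and 2.91 in P-SSCs, and 0, 0, 305 and 90.6 in grafts. The groups overlapped in every comparison, and the 95% interval of the log2 change between graft BM-MSCs and BM-MSCs ran from −8.16 to 1.58. P-SSC 4 was at 3 reads, and a count of 0 allows up to 1.69 and 2.53 normalised counts in graft BM-MSC 1 and 2, so absence cannot be stated. The highest value again belonged to graft BM-MSC 3, whose hematopoietic markers (Ptprc, Cd52, Laptm5 and Coro1a) summed to 2654, beside 250 to 590 in the other grafts. The highest sum of all libraries, 3025 in BM-MSC 2+4, went with the lowest Cdk6 value of the BM-MSCs (81.2). P-SSC 2+5, with 129 of Cdk6, had a sum of 52.2. The part of blood cell RNA in the Cdk6 values was not tested.

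**Figure D3:**
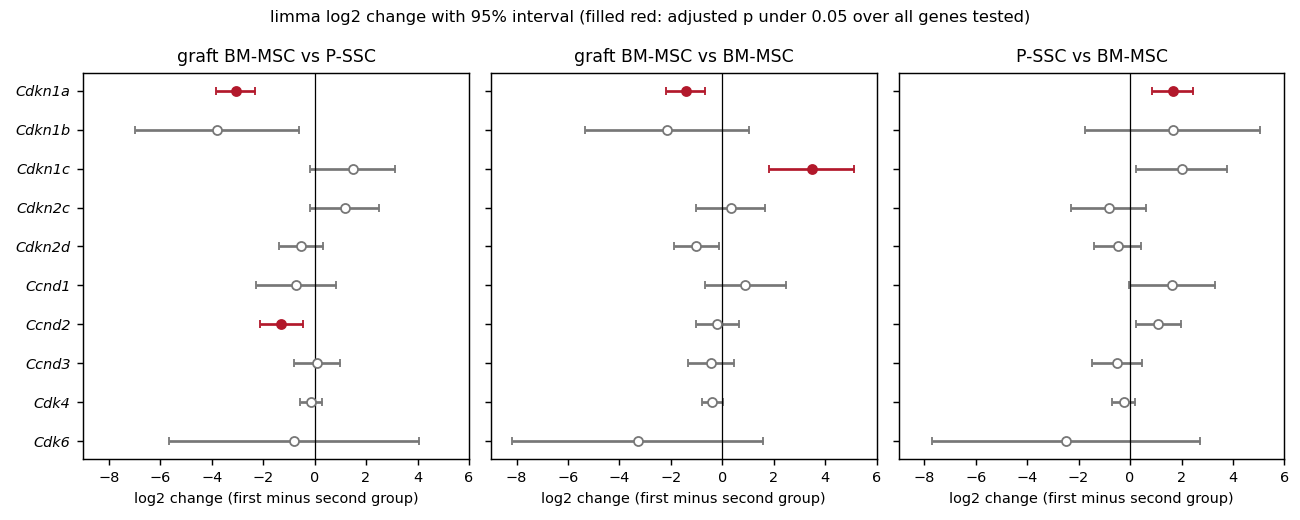
Points are limma log2 changes of the 10 genes in each comparison, first group minus second, and bars are 95% intervals. Filled red points passed an adjusted p under 0.05 over all genes tested: Cdkn1a in all 3 panels, Cdkn1c in graft BM-MSCs against BM-MSCs and Ccnd2 in graft BM-MSCs against P-SSCs. Intervals are narrowest for Cdk4 and widest for Cdk6.

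Levels of different genes were compared per kilobase, since longer genes collect more reads. Per kilobase of exon Cdkn1a made up 91.6% ± 2.6 (SD, n = 3) of the CIP/KIP inhibitor level in BM-MSCs, 84.7% ± 17.8 (n = 3) in P-SSCs and 33.0% ± 3.7 (n = 4) in grafts. Cdkn1c made up 6.63% ± 3.07, 13.7% ± 17.9 and 66.2% ± 3.1, and Cdkn1b at most 2.19% in any library. In P-SSC 4 Cdkn1c made up 34.4%, and in the other P-SSC libraries 2.39% and 4.38%. Which gene led in grafts depended on the length used: per kilobase of coding sequence Cdkn1a made up 65.1% and Cdkn1c 33.2%. On either length every graft library had a lower Cdkn1a share and a higher Cdkn1c share than every BM-MSC library. The summed level of the class per kilobase of exon was 721 ± 135 (SD, n = 3) in BM-MSCs, 2495 ± 504 (n = 3) in P-SSCs and 775 ± 273 (n = 4) in grafts.

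Among the D cyclins Ccnd3 held the largest mean share per kilobase of exon in BM-MSCs (65.1% ± 4.2, SD, n = 3) and in grafts (56.1% ± 19.2, n = 4), and Ccnd2 in P-SSCs (51.8% ± 12.4, n = 3). In 2 grafts Ccnd2 stood ahead of Ccnd3, at 49.5% and 48.1%, and in P-SSC 4 Ccnd3 stood ahead of Ccnd2, at 50.1% beside 37.8%. Ccnd1 made up at most 17.3% in any library. Cdk4 made up at least 98.3% of the level of both kinases in every library per kilobase of exon and at least 93.5% per kilobase of coding sequence. These shares are a description with no test.

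**Figure D4:**
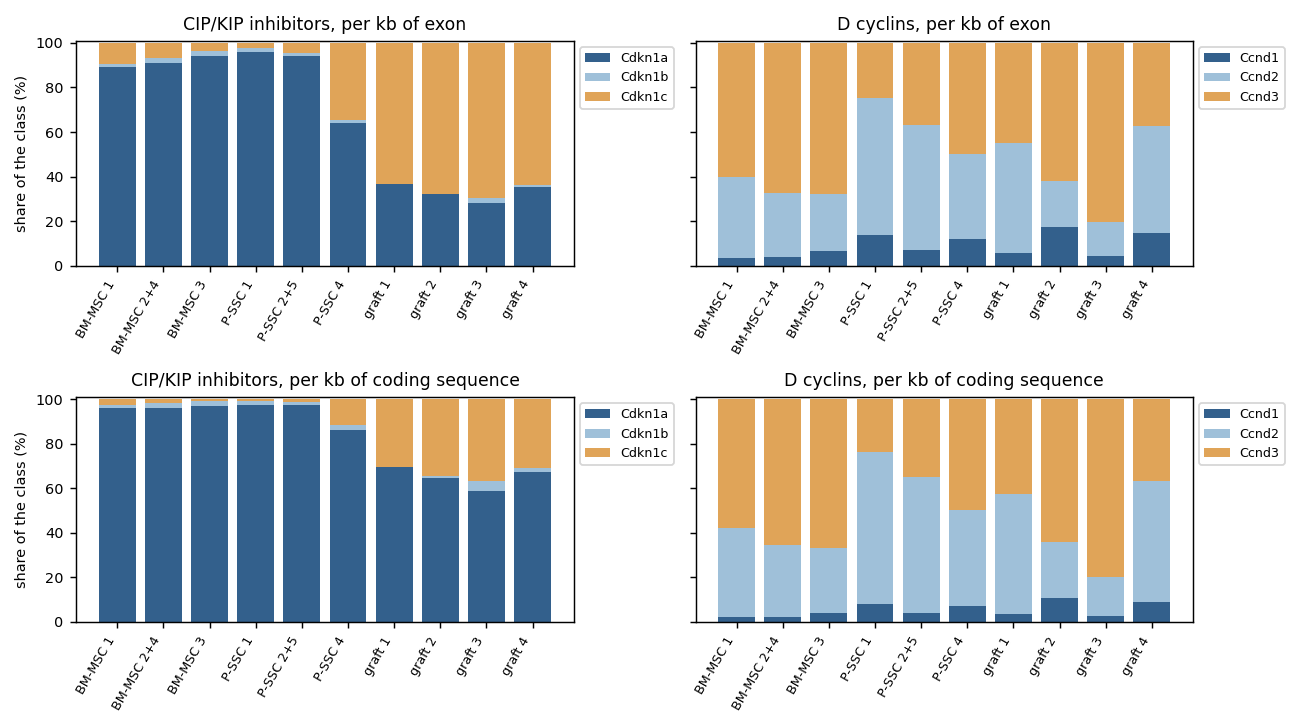
Stacked bars give the share (%) of each CIP/KIP inhibitor (left) and each D cyclin (right) in the summed level of its class, for the 10 libraries, per kilobase of exon (top) and of coding sequence (bottom). Cdkn1a fills most of the bar in BM-MSC and P-SSC libraries, and the Cdkn1c part is larger in the 4 grafts and in P-SSC 4.

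The other genes of the pathway were taken from 8 lists with 76 genes, of which 71 were tested. In graft BM-MSCs 4 were higher and 7 lower than in P-SSCs, and 4 were higher and 5 lower than in BM-MSCs. P-SSCs had 4 higher and 6 lower than BM-MSCs. The shares called were 15.5%, 12.7% and 14.1% of the 71, beside 18.1%, 7.67% and 9.15% of all genes tested. Other inhibitors and brakes (Cdkn2b, Cdkn3, Ccng1, Ccng2 and Cables1 tested) passed in none, nor did the 7 tested genes of the cyclin E and Cdk2 stage. Cdkn2a, the remaining INK4 locus, was too low to be tested and was at 0 in 7 of the 10 libraries.

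Of 13 tested upstream regulators of these genes, 3 were higher and 2 lower in grafts than in P-SSCs, 4 were higher in grafts than in BM-MSCs, and 2 were higher in P-SSCs than in BM-MSCs. These are 38.5%, 30.8% and 15.4% of the list, beside 18.1%, 7.67% and 9.15% of all genes tested. Smad4, the shared mediator of TGF-beta and BMP signals that induce Cdkn1a and INK4 genes, was higher in grafts than in P-SSCs (log2 change 3.04, SE 0.50, adjusted p = 0.00187) and than in BM-MSCs (3.61, SE 0.50, adjusted p = 0.00301). Grafts held 982 to 2728 normalised counts of it and the other libraries 116 to 329, and each call was kept in 20 of 22 alternatives. Klf4, a factor known to induce Cdkn1a, was at 28.6 to 56.4 in BM-MSCs, 1207 to 2889 in P-SSCs and 42.3 to 230 in grafts. P-SSCs were higher than BM-MSCs by a log2 change of 5.36 (SE 0.76, adjusted p = 0.00102), and the change of grafts against P-SSCs was −3.73 (SE 0.71, adjusted p = 0.00438), each call kept in 21 of 22 alternatives. Bmi1, a repressor of the Cdkn2a locus, was higher in grafts than in P-SSCs (4.07, SE 0.91, adjusted p = 0.0107). Hes1, a Notch target that represses Cdkn1b, and Foxo1, which can induce it, were higher in grafts than in BM-MSCs, by 3.46 (SE 0.69, adjusted p = 0.0151) and 2.96 (SE 0.63, adjusted p = 0.0198). For both, P-SSC 4 stood with the grafts, at 1348 and 1068 normalised counts beside at most 229 and 262 in the other steady-state libraries. The GC kind as a covariate draws on these same P-SSC 4 values and adds no separate observation. With it the changes of Hes1 and Foxo1 over BM-MSCs were 0.58 (adjusted p = 0.892) and 0.67 (adjusted p = 0.887). With that covariate Smad4 (2.61, adjusted p = 0.0636 against P-SSCs and 2.97, adjusted p = 0.294 against BM-MSCs) and Bmi1 (2.16, adjusted p = 0.280) were also not called, and leaving out any 1 BM-MSC library ended the calls of Hes1 and Foxo1 (adjusted p 0.0514 to 0.072).

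The chaperones that fold Cdk4 and Cdk6 were lower in grafts than in P-SSCs, and 1 of the 3, Cdc37, was also lower than in BM-MSCs. The shares of all genes called were 18.1% in grafts against P-SSCs, 7.67% in grafts against BM-MSCs and 9.15% in P-SSCs against BM-MSCs. All 3 genes of the list, Hsp90ab1, Cdc37 and Hsp90aa1, fell against P-SSCs, with log2 changes of −1.37 (SE 0.18, adjusted p = 0.000441), −1.47 (SE 0.24, adjusted p = 0.00186) and −1.13 (SE 0.27, adjusted p = 0.0151). Cdc37 values were 1404.5 to 1989 in grafts, 3307 to 4138 in BM-MSCs and 3319 to 5765 in P-SSCs, with no overlap between grafts and the rest. Against BM-MSCs Cdc37 changed by −1.16 (SE 0.24, adjusted p = 0.0187), while the log2 changes of Hsp90ab1 (−0.64, adjusted p = 0.0563) and Hsp90aa1 (−0.42, adjusted p = 0.359) did not pass. Hsp90ab1 was higher in P-SSCs than in BM-MSCs by 0.73 (SE 0.19, adjusted p = 0.0368), with a call in 9 of 22 alternatives. The GC correction ended the calls of grafts against P-SSCs for Hsp90ab1 (−0.49, adjusted p = 0.378), Cdc37 (−0.58, adjusted p = 0.332) and Hsp90aa1 (−0.67, adjusted p = 0.369), and that of Cdc37 against BM-MSCs (−0.27, adjusted p = 0.723). The latter call was also lost with median centring (−1.32, adjusted p = 0.0519), with the GC kind as a covariate (−0.47, adjusted p = 0.817), without BM-MSC 2+4 (−1.08, adjusted p = 0.0857) and without BM-MSC 3 (−1.16, adjusted p = 0.0688).

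Of 11 tested genes for the turnover of D cyclins and p27, 2 were called in grafts against P-SSCs and in P-SSCs against BM-MSCs, and none in grafts against BM-MSCs. These are 18.2%, 18.2% and 0% of the list, beside 18.1%, 9.15% and 7.67% of all genes tested. Cul1, the scaffold of the ubiquitin ligases that remove p27 and D cyclins, was at 450 to 1450 normalised counts in P-SSCs, 2176 to 4437.5 in BM-MSCs and 2038 to 3734 in grafts. It was higher in grafts than in P-SSCs by 1.80 (SE 0.42, adjusted p = 0.0127) and lower in P-SSCs than in BM-MSCs by −1.86 (SE 0.45, adjusted p = 0.0244). Cryab, a small heat shock protein that joins a ligase for cyclin D1, ran the other way, with 3079 to 6005 in P-SSCs, 524 to 580 in BM-MSCs and 352 to 1488 in grafts. Its log2 changes were −2.41 (SE 0.45, adjusted p = 0.00407) for grafts against P-SSCs and 2.85 (SE 0.48, adjusted p = 0.00311) for P-SSCs against BM-MSCs. With the GC kind as a covariate the changes of grafts against P-SSCs were 1.06 for Cul1 (adjusted p = 0.359) and −2.01 for Cryab (adjusted p = 0.126). The Cul1 call between P-SSCs and BM-MSCs also ended without BM-MSC 1 or 2+4 or P-SSC 1 or 2+5 (−1.96 to −1.38, adjusted p 0.0596 to 0.111).

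Downstream of the D cyclin kinases, 12 proliferation markers had their highest summed level in BM-MSCs. They summed to 6240, 8030 and 24253 normalised counts in BM-MSCs, 1841 to 2701 in P-SSCs and 2264 to 3198 in grafts. All 12 had a negative log2 change in both comparisons with BM-MSCs, with medians of −4.63 in grafts and −4.48 in P-SSCs (−4.63 and −4.46 with genes at 0 in a whole group set to 3 reads), but the calls were Mki67 in grafts and Mki67, Ccnb1 and Ccnb2 in P-SSCs. These are 8.33% and 25% of the list, beside 7.67% and 9.15% of all genes tested. Ccnb1, a mitotic cyclin, was at 303, 151 and 1198 in BM-MSCs and at most 1.27 in P-SSCs (adjusted p = 0.0329). Mki67, which marks cycling cells, was at 51.2, 86.5 and 370 in BM-MSCs and at 0 in every other library. The mean of BM-MSCs was thus at least 68.8-fold higher than that of grafts (adjusted p = 0.00226), against 3 reads per library. Against P-SSCs it was at least 51.5-fold higher (adjusted p = 0.000849). Without BM-MSC 3 these bounds were 27.99-fold and 20.97-fold. All such bounds here compare group means with a floor that covers counting error only. Mybl2, the cell cycle partner of the MuvB complex, was at 38.6, 99.1 and 410 in BM-MSCs, at most 7.27 in P-SSCs (adjusted p = 0.0140), and at 0 in grafts, at least 74.3-fold lower than in BM-MSCs (adjusted p = 0.00600), or 28.02-fold without BM-MSC 3. Rbbp4, a histone-binding subunit of MuvB, was the other call of that list of 7 (−0.93 in grafts against BM-MSCs, SE 0.23, adjusted p = 0.0391, and −0.30 with an adjusted p of 0.654 after the GC correction). Its call was kept in 11 of 22 alternatives. Other losses included median centring (adjusted p = 0.0642), quantile normalization (0.0901), edgeR (0.0663) and leaving out BM-MSC 1 (0.148) or BM-MSC 3 (0.134). The MuvB calls are 28.6% of the list in grafts and 14.3% in P-SSCs against BM-MSCs, beside 7.67% and 9.15% of all genes tested. Among the pocket proteins and E2F factors 1 of 13 (7.69%) was called in each comparison, beside 18.1%, 7.67% and 9.15% of all genes tested. These were E2f7 in grafts against P-SSCs, E2f2 in grafts against BM-MSCs and E2f8 in P-SSCs against BM-MSCs, all lower in the group named first. Each was at 0 in every library of that group, at least 25.4-fold, 40.4-fold and 35.2-fold lower than in the other group (adjusted p 0.0246, 0.0199 and 0.0481), and edgeR called none of these 3 changes (adjusted p 0.0983, 0.108 and 0.231). The E2f8 call was kept in 4 of 21 alternatives and ended without any 1 BM-MSC or P-SSC library (adjusted p 0.0856 to 0.163), and its bound was 15.7-fold without BM-MSC 3. The E2f2 call ended without any 1 BM-MSC library (adjusted p 0.0555 to 0.0708), and that of E2f7 without P-SSC 1 (0.0894) or P-SSC 4 (0.0515). BM-MSC 3 held the most proliferation markers and the most erythroid markers (168168), and blood markers were higher in every BM-MSC library than in any P-SSC library. Their part in these results was not tested. edgeR called neither Mki67 (adjusted p = 0.0729 in grafts and 0.104 in P-SSCs) nor Mybl2 (0.0617 and 0.211), and leaving out any 1 BM-MSC or P-SSC library ended the Ccnb1 call (adjusted p 0.0694 to 0.140). The Ccnb2 call was kept in 13 of 22 alternatives, and was lost in edgeR (adjusted p = 0.153) and without any 1 BM-MSC library, P-SSC 1, P-SSC 2+5 or graft BM-MSC 1 (adjusted p 0.0508 to 0.165). With the GC kind as a covariate the changes of grafts against BM-MSCs were not called for Mki67 (adjusted p = 0.132) or Mybl2 (0.483).

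**Figure D5:**
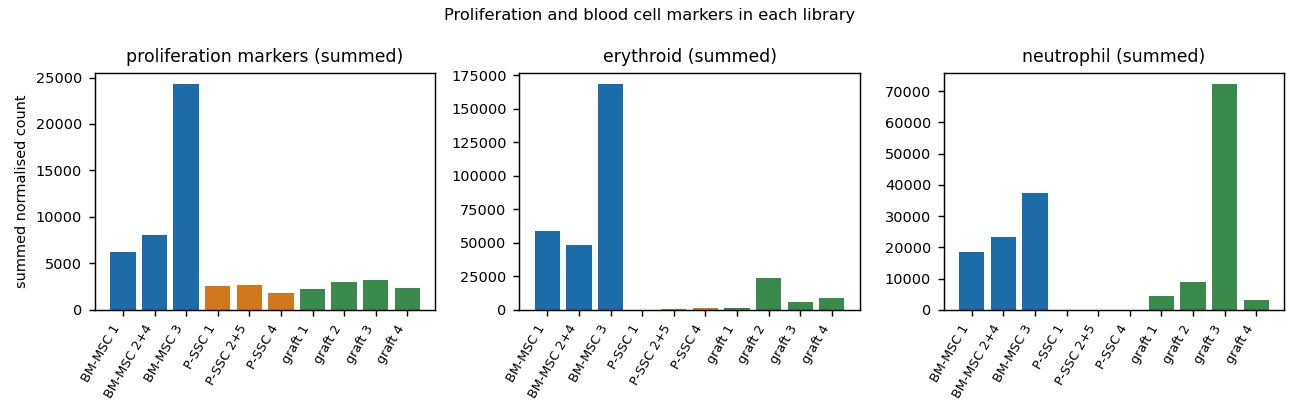
Bars give the summed normalised counts of 12 proliferation markers, 4 erythroid markers and 4 neutrophil markers in each library. BM-MSC 3 has the highest proliferation sum (24253) and erythroid sum (168168), and graft BM-MSC 3 the highest neutrophil sum (72146).

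For 1 gene in each class the genes with the most similar pattern were sought among 9545 others with a mean of at least 100, by Pearson's r of log2 values over the 10 libraries. The genes most like Cdkn1a included Srebf1 (r = 0.98) and Slc6a2 (0.97). Srebf1, a regulator of lipid synthesis, was at 2573 ± 423 (SD, n = 3) in BM-MSCs, 4392 ± 465 (n = 3) in P-SSCs and 1820 ± 106 (n = 4) in grafts. Ccnd2 was most like Anks1, Cav1 and Plat (0.97 each), and Plat, which encodes tissue plasminogen activator, was at 16708.5 ± 6571 in P-SSCs beside 150 ± 37 in BM-MSCs and 260 ± 352 in grafts. Cdk4 was most like Sdhc (0.92), Fis1 (0.91) and Hdac1 (0.91). These r values come from 10 libraries in 3 groups and are descriptions.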

How the data were processed

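RNA of 10 libraries was measured by sequencing poly-A RNA of sorted cells. The deposited signal values are read counts per gene, scaled by each library's size factor, made by the authors with STAR and DESeq2. The study's methods name the build GRCm38, while the submitters' processing notes name GRCm39, STAR 2.5, featureCounts (Subread 1.4.6) and DESeq2 1.26.0. The strand setting is not given in the sources used here. Dividing each column by the value of 1 read gave whole reads (tolerance 0.01) for 100% of values, and totals are sums of these reads. A floor of 3 reads covers counting error only.

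Values were analysed as log2(value + 1), which understates changes of low genes, for the 13644 genes with a mean of at least 10. limma 3.58.1 in R 4.3.3 estimated the group means from the 10 libraries together (7 residual degrees of freedom, trend in the variance), two-sided, with Benjamini-Hochberg adjustment over all genes tested. On recovered reads edgeR 4.0.16 (quasi-likelihood) called 1531, 316 and 619 genes in the comparisons graft with P-SSC, graft with BM-MSC and P-SSC with BM-MSC, and DESeq2 1.42.0 called 2908, 1947 and 1515. Alternatives changed the pseudocount, filter, scaling, GC treatment, threshold, tool or libraries.

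Replicates within a group differed beyond counting noise. Methods were tested on simulated data. Gene positions, exon lengths and GC content came from GENCODE M21 (GRCm38), which held 15052 of the IDs and lacked 26. Upstream windows came from RefSeq (GRCm38.p6).

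The 10 genes and the lists were chosen with earlier results of these data known. Named beside them were, per list and comparison, at most 3 genes with the smallest adjusted p under 0.05, and for the gene of each class with the smallest F-test p the 3 genes with the highest r. One gene that the rule for similar patterns would name is not reported here.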

Additional observations from a re-analysis of the deposited data

Results flagged for a closer look

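Of the genes named, 4 had a graft library far from the other 3 by Dixon's test of log2 values (the gap to the nearest library divided by the whole range, set against its 95% critical value). For E2f8 the ratio was 1.0, with 99.5 normalised counts in graft BM-MSC 2 and 0 in the others. For Ccnb1 it was 0.898, with 0 in graft BM-MSC 2 beside 160 to 286. For Smad4 it was 0.862, with 982 in graft BM-MSC 2 beside 2369 to 2728. For Klf4 it was 0.876, with 42.3 in graft BM-MSC 3 beside 187 to 230. Graft BM-MSC 2 detected the fewest genes (9308). None of the 10 CDK inhibitors, D cyclins and kinases was among them. Chance alone gives such a ratio in about 1 in 20 groups, and 29 genes were examined.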

How the results depend on the processing

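For graft BM-MSCs against P-SSCs the count of 2 called genes among the 10 became 1 (Cdkn1a) with quantile normalization, the GC kind as a covariate, the 2 groups alone, edgeR or an adjusted p under 0.01, and was 1 to 3 when each library was left out in turn. For graft BM-MSCs against BM-MSCs the count of 2 became 1 with median centring or the GC correction (Cdkn1c in both), 0 with the GC kind as a covariate, with edgeR or with an adjusted p under 0.01, and was 0 to 2 with each library left out. For P-SSCs against BM-MSCs the count of 1 became 0 with median centring, the GC correction or an adjusted p under 0.01, 2 with the 2 groups alone (Ccnd2 added) or DESeq2 (Cdkn1c added), and was 0 to 1 with each library left out. Why these counts moved was not tested. None of the 5 called changes among the 10 genes turned sign in any alternative, but 11 of the 25 that were not called did in at least 1, among them Cdkn1c in grafts against P-SSCs (−0.51 with the GC kind as a covariate).

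A replicate block by the numbers in the titles gave 1, 0 and 0 called genes among the 10, and 269, 3 and 54 over all genes. Labels share only numbers, so the libraries were not treated as paired. Deviations of same-numbered libraries correlated by −0.019 to 0.030. With few shared numbers per comparison, these correlations cannot show whether any such libraries came from the same mouse.

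Over all genes 2464, 1046 and 1248 were called. The GC kind as a covariate left 1081 and 40 in the graft comparisons, and adjusted p under 0.01 left 1332, 305 and 794. The GC effect of that covariate comes from P-SSC 4 against the other P-SSC libraries. Without P-SSC 1 the first count was 1583, and without BM-MSC 1, 2+4 or 3 the second was 540, 476 and 477, while without P-SSC 4 it was 1584. The share of calls higher in grafts was 33.7% against P-SSCs and 34.03% against BM-MSCs, 50.1% and 57.5% after quantile normalization, 62.0% and 71.5% after the GC correction, and against BM-MSCs 47.1% with DESeq2.

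Per kilobase of coding sequence, Ccnd1 made up 2.66% of the D cyclins in BM-MSCs and 6.38% in P-SSCs. Cdkn1a made up 96.3% of the CIP/KIP inhibitors in BM-MSCs and 65.1% in grafts, Cdkn1b 1.88% in P-SSCs and 1.69% in grafts, and Cdkn1c 1.78% in BM-MSCs and 33.2% in grafts. Cdk4 made up 97.8%, 99.1% and 97.9% and Cdk6 2.20%, 0.855% and 2.11% of the kinases in BM-MSCs, P-SSCs and grafts.

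Cdkn1b and Cdk6 had values of 0 in 1 and 2 graft libraries, 1 of which, graft BM-MSC 1, was the deepest of the 10 (25223295 reads).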
